A study of Mus musculus with 12 samples.

Results

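The genes described here are 40 genes of ribosome biogenesis and the nucleolus, followed in mouse regulatory T cells (Treg) and conventional T cells (Tcon) after a stapled peptide against FOXP3. They were chosen by name, as a list of symbols, and the rule itself uses no measured value. The choice was made with earlier results of these data known, so the list is not independent of them. All 40 were found by exact symbol in both deposited tables, among 10405 genes listed for Treg and 9886 for Tcon, of which 9784 are in both. No member shared its values with another symbol, and the filter on low values removed 0 members. The study holds 12 RNA-seq libraries, 6 from naive CD4+ Tcon and 6 from CD4+CD25+FOXP3+ Treg, sorted from lymph node or spleen. All mice were of the strain B6.Cg-Foxp3tm2Tch/J, whose FOXP3-IRES-GFP reporter allele makes GFP along with FOXP3. Mice were given SAH-FOXP3(229-259)C (here SAH), a hydrocarbon-stapled alpha-helical peptide, at 25 mg/kg by intraperitoneal injection daily for 2 days, or vehicle, which the titles name as DMSO. In each organ and cell type, 1 library is from vehicle and 2 are from SAH. Library numbers are shared by the Treg and Tcon tables: 1 is vehicle and 2 and 3 are SAH in lymph node, 4 is vehicle and 5 and 6 are SAH in spleen. Age, sex and the number of mice behind each library are not given in the labels, so a p-value here speaks only of the spread among these libraries, which may be technical.

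Ribosomes are made in the nucleolus. RNA polymerase I transcribes the ribosomal RNA precursor there, box C/D and box H/ACA small nucleolar RNA particles (snoRNPs) guide its chemical modification, and large sets of assembly factors fold, cut and package it into the small (40S) and large (60S) subunits. The work is costly to the cell, rises when T cells leave quiescence and grow, and is under the control of MYC, a transcription factor that binds the E-box CACGTG, and of nutrient signalling through mTORC1. In resting lymphocytes the machinery is present at a low but steady level.

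Promoter sequence was looked at for the members that the results turn on, because MYC is itself a member and its E-box can be searched for directly. A RefSeq promoter window (GRCm38.p6), 300 bases from 250 before to 50 after the gene start, was found for 35 of the 40 members and not for Rrp12, Fbl, Myc, Npm1 and Bop1. The first 280 bases of the window are shown 5′ to 3′ for 5 members, all on the plus strand, with CACGTG in capitals. Nop56 (chr2:130274162-130274441) and Ppan (chr9:20887925-20888204) are the 2 members that passed a test after SAH in Tcon. Nop2 (chr6:125131633-125131912) and Tsr1 (chr11:74897830-74898109) are members that differed between organs, and Wdr43 (chr17:71615965-71616244) carries the motif but passed no test.
Nop56: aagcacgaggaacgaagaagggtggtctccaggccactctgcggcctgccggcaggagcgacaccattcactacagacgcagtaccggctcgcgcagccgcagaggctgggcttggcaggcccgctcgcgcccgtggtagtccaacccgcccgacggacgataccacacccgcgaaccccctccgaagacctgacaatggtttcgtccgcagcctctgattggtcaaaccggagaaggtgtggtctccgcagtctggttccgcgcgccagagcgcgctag
Ppan: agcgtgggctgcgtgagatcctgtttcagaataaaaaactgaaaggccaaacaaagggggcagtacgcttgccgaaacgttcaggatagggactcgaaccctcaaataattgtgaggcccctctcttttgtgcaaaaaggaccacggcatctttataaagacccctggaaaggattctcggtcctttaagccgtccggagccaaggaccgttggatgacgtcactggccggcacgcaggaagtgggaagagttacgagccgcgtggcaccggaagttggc
Nop2: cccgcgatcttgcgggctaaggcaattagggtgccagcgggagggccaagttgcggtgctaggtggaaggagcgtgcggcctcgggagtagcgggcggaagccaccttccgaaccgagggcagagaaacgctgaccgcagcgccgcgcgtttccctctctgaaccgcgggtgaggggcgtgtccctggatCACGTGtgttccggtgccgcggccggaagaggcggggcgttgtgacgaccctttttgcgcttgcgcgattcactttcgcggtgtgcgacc
Tsr1: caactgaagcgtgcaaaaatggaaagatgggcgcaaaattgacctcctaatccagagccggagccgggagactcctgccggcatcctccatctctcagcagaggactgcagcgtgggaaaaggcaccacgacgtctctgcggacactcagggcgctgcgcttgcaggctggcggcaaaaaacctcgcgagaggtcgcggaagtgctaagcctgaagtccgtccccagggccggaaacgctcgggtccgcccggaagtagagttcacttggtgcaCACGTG
Wdr43: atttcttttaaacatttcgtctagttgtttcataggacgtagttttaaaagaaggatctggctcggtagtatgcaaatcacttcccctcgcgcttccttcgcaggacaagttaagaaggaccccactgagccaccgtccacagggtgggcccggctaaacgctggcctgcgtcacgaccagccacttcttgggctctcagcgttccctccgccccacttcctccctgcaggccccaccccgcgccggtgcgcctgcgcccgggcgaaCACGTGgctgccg
The letters CACGTG, which read the same on both strands, were present in the windows of 8 members (Grwd1, Imp4, Mybbp1a, Nop2, Pes1, Tsr1, Utp20 and Wdr43). That is 22.9% of the 35 members with a window, against 12.1% of the 8120 listed genes with one and 8.09% of all 27025 genes in the RefSeq table. The motif began 60 bases before the start in Nop2 and 121 before it in Imp4, and 3 to 41 bases after the start in the other 6 members. The looser pattern CANNTG, of which CACGTG is one case, was in 60% of the members with a window and in 66.9% of the listed genes. Neither window of the 2 members that passed a test after SAH in Tcon holds the letters CACGTG. Both calls depended on single libraries and on the scaling, as given below. Rrp12, which the authors' deposited values also call higher in Tcon, has no window.

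An estimated 36442420 to 48888678 reads per library fell in the listed genes, rebuilt from the steps between deposited values. On that estimate no member had fewer than 440 reads in any library, a counting error of 4.77%. Few low values remain in the tables to fix the worth of 1 read, so these depths are approximate and no test uses them. The members together took 0.426% to 0.590% of the summed signal. T cell identity was clear, with Cd4 at 719 and Cd3e at 403 CPM on average in Treg and 992 and 336 CPM in Tcon, and Foxp3 averaged 690.4 CPM in the Treg libraries but 22.3 CPM in the Tcon libraries. Markers of other cells were low but differed by organ: the summed myeloid markers (6 of 10 listed in Treg, 4 of 10 in Tcon) lay between 29.9 and 32.6 CPM in lymph node Treg and between 70.1 and 109 CPM in spleen Treg. In Tcon the same sums lay between 23.6 and 25.4 CPM and between 44.9 and 51.8 CPM. Library 6, from SAH spleen, held most of the red cell signal, at 139 CPM in the Treg table, against at most 16.3 CPM in any other Treg library, and the Tcon library of the same number was likewise highest. In such bulk samples, fewer cells of a type and less RNA per cell cannot be told apart.

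Per kilobase of exon, the most abundant member was Npm1, the nucleolar chaperone nucleophosmin, at 251 ± 15.7 CPM per kb in Treg and 415 ± 20.8 CPM per kb in Tcon (SD, n = 6 libraries each). Nop56, a core protein of box C/D snoRNPs, followed at 129.7 ± 6.49 and 156 ± 21.5 CPM per kb. Ncl, which encodes nucleolin, came next at 125 ± 4.16 and 139 ± 6.08 CPM per kb, then Fbl, the rRNA methyltransferase fibrillarin, at 78.1 ± 6.39 and 96.7 ± 7.62 CPM per kb. The spreads of Nop56 and Ncl overlapped in both tables, so their order is not settled. The lowest members per kilobase were Wdr12, Bysl and, in Treg, Rrp12, all at or under 7.60 CPM per kb. The exon length counted was 10.6 kb for Wdr12, the longest of the 40, and the use of single transcripts was not measured. For Ncl it was 8.20 kb and for Npm1 2.03 kb, so the order of these genes depends on the length used. Without division by length, Ncl averaged 1029 CPM and Npm1 509 CPM in Treg. Myc ranked 10 of 40 in Treg at 33.0 ± 1.04 CPM per kb and 23 of 40 in Tcon at 21.9 ± 2.17 CPM per kb. In mean CPM, 32 of the 40 members were higher in the Tcon table and 8, among them Myc, Mybbp1a and Rrp1b, were higher in the Treg table. The tables were normalized separately, so these differences in level were not tested.

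In Treg, the RNA of the ribosome biogenesis genes was about the same in SAH and vehicle libraries. None of the 40 members passed the test (limma on log2(CPM + 1), Benjamini-Hochberg over all genes, adjusted p below 0.05), where 0.135% of all Treg genes were called higher and 0.0673% lower, and 1 member, Rrp1b, was higher at an unadjusted p below 0.05 (4.38% of all genes) and 0 were lower (2.66%). The log2 changes ran from -0.08 to 0.13 with a median of 0.007, next to 0.003 over all genes, and 23 were above 0 and 17 below (48.2% of all genes). With quantile normalization it was -0.002 next to -0.005 over all genes, and with equal column totals -0.01 next to -0.02. The 95% confidence intervals of all 40 members lay between 0.855-fold and 1.22-fold. The members summed to 4744 CPM in lymph node vehicle and 4717 and 4627 CPM in SAH, and to 4336 CPM in spleen vehicle and 4555 and 4339 CPM in SAH.

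The most abundant Treg members show how close the libraries were. In each list of 3 values that follows, the vehicle library comes first and the 2 SAH libraries after it. Ncl was at 1062, 1061 and 1037 CPM in lymph node and 991, 1039 and 984 CPM in spleen. Npm1 was at 536, 541 and 529 CPM in lymph node and 489, 497 and 460.4 CPM in spleen. Nop56 was at 266, 252 and 241 CPM in lymph node and 229.9, 242 and 253 CPM in spleen, a log2 change of -0.0013 (95% confidence interval -0.12 to 0.12). The SAH libraries of Nop56 were below vehicle in lymph node and above it in spleen, and the groups overlapped. Fbl was at 97.9, 107 and 93.7 CPM in lymph node and 88.00, 87.7 and 87.3 CPM in spleen. Polr1a, the largest subunit of RNA polymerase I, was at 93.5, 90.3 and 91.7 CPM in lymph node and 89.4, 92.97 and 93.8 CPM in spleen. Myc was at 83.8, 82.4 and 82.9 CPM in lymph node and 79.5, 77.9 and 78.3 CPM in spleen, so its SAH libraries lay just below vehicle in both organs, with a log2 change of -0.02 (95% confidence interval -0.13 to 0.08).

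The largest Treg changes were small as well. Rrp1b, a nucleolar protein of large subunit assembly, was at 60.3, 65.3 and 64.3 CPM in lymph node and 52.1, 59.1 and 57.1 CPM in spleen, a log2 change of 0.13 (95% confidence interval 0.01 to 0.24, adjusted p = 0.646, limma). Bysl, a late 40S assembly factor, was at 19.8, 21.9 and 21.8 CPM in lymph node and 18.6, 19.2 and 21.2 CPM in spleen, a log2 change of 0.12. Ppan, a large subunit assembly factor, was at 50.5, 51.7 and 53.5 CPM in lymph node and 47.3, 51.6 and 54.3 CPM in spleen, and its log2 change was 0.11 (adjusted p = 0.800, limma). All 3 had both SAH libraries above vehicle in each organ, as had 7 members in all (13.4% of all genes), and Ppan was the only member with its 4 SAH libraries above both vehicle libraries (5.01% of all genes). At the other end stood the small subunit factors Utp14a, Wdr75 and Tsr1. Utp14a was at 53.3, 46.8 and 49.2 CPM in lymph node and 45.1, 46.3 and 43.2 CPM in spleen, a log2 change of -0.08. Wdr75 was at 59.7, 50.8 and 55.2 CPM in lymph node and 49.5, 51.9 and 48.6 CPM in spleen, a log2 change of -0.07. Tsr1 was at 63.7, 62.7 and 58.7 CPM in lymph node and 60.03, 61.8 and 55.6 CPM in spleen, a log2 change of -0.05. In these 3 genes the vehicle library was highest in lymph node, and in spleen it stood inside the range of the SAH libraries.

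In Tcon, 2 members rose after SAH, Nop56 by 1.30-fold and Ppan by 1.22-fold, and none fell. That is 2 of 40, where 0.88% of all Tcon genes were called higher and 0.162% lower. At an unadjusted p below 0.05, 13 members were higher (7.89% of all genes) and 0 lower (6.18% of all genes). The median log2 change of the members was 0.10, or 1.07-fold, next to -0.003 over all genes, and 35 of 40 members were above 0, as were 48.9% of all genes. That median was 0.05 without library 1, the lymph node vehicle, and 0.11 without library 4, the spleen vehicle. The members summed to 5272 CPM in lymph node vehicle and 5913 and 5706 CPM in SAH, and to 5177 CPM in spleen vehicle and 5564 and 5416 CPM in SAH.

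**Figure D1:**
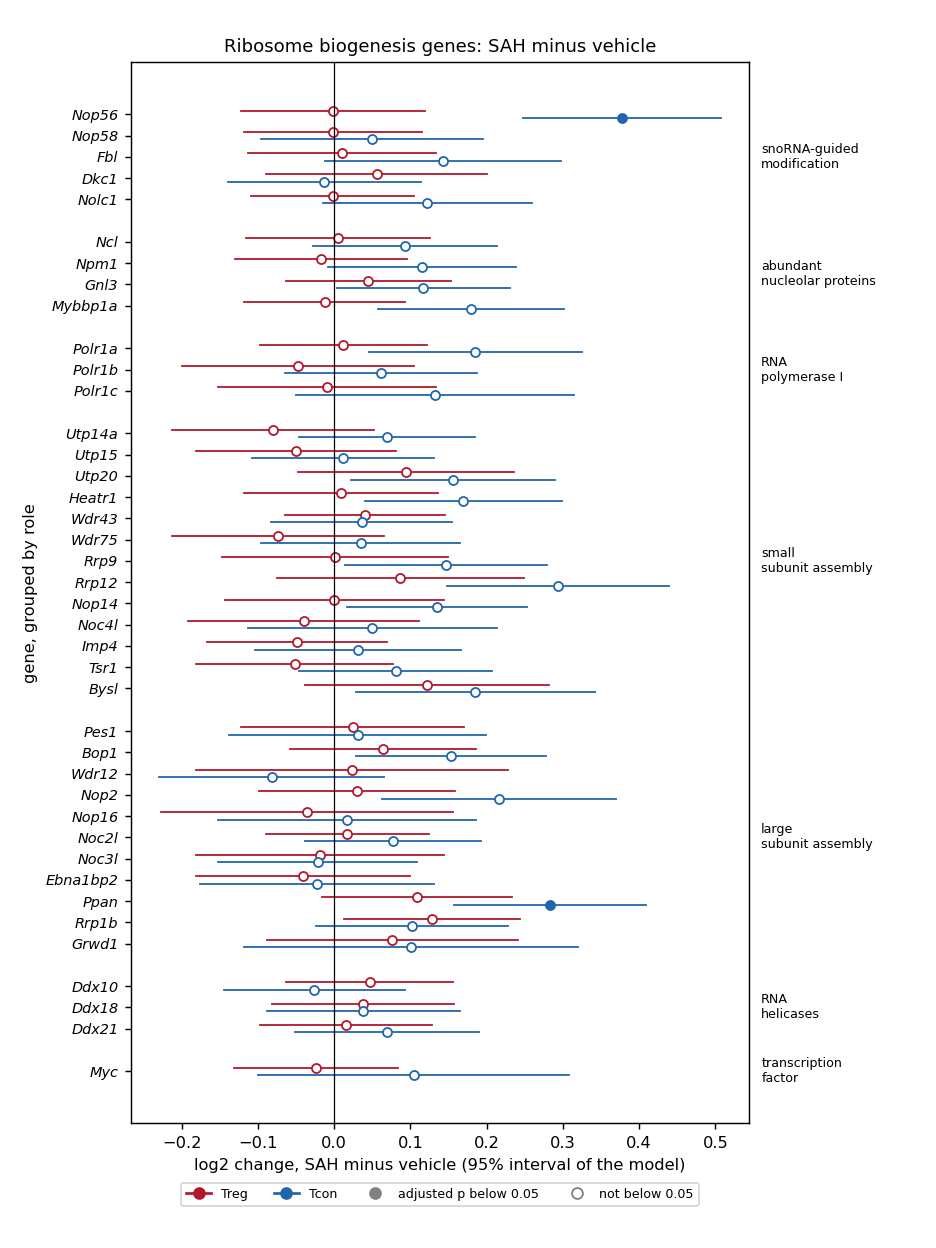
Log2 change from vehicle to SAH (x axis, limma on log2(CPM + 1)) of each of the 40 genes, grouped by role (y axis), in Treg (red) and Tcon (blue). Points are estimates, bars are 95% confidence intervals, and filled points have an adjusted p below 0.05. Only Nop56 and Ppan in Tcon are filled, at 0.38 and 0.28, and the Treg points lie between -0.08 and 0.13.

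Nop56 (ENSMUSG00000027405, chr2:130274430-130279313, plus strand, mm10) was at 262, 339 and 317 CPM in lymph node and 233, 303 and 328 CPM in spleen. Both SAH libraries exceeded the vehicle library in each organ, and the lowest SAH library stood above both vehicle libraries. The change was 1.30-fold (log2 0.38, 95% confidence interval 0.25 to 0.51, adjusted p = 0.0189, limma). Nop56 is also a snoRNA host: 5 annotated snoRNA genes lie within it, Snord57 and Snord110 among them. Its exons share 5 bases with Idh3b on the other strand. Ppan (ENSMUSG00000004100, chr9:20888175-20892178, plus strand, mm10), whose yeast counterpart acts in 60S assembly, was at 52.4, 62.2 and 65.7 CPM in lymph node and 47.7, 59.5 and 57.04 CPM in spleen. Its 4 SAH libraries likewise lay above both vehicle libraries, with a change of 1.22-fold (log2 0.28, 95% confidence interval 0.16 to 0.41, adjusted p = 0.0496, limma). Rrp12, a factor of 40S assembly and export, was at 41.7, 47.7 and 47.4 CPM in lymph node and 34.6, 45.6 and 46.7 CPM in spleen. Its groups did not overlap either, and its log2 change of 0.29 (95% confidence interval 0.15 to 0.44) narrowly missed the threshold (adjusted p = 0.0667, limma). In the authors' deposited table, 3 members are called up in Tcon: Nop56 (log2 0.38, false discovery rate 3.59e-05), Rrp12 (log2 0.30, 0.00808) and Ppan (log2 0.29, 0.00277). The authors' deposited table calls 0 members in Treg.

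Both calls depended on single libraries and on the scaling. Nop56 had an adjusted p of 0.0655 without library 1, 0.0658 without 3, 0.253 without 4 and 0.0549 without 6 (limma), with log2 changes from 0.32 to 0.43 over all 6 omissions. With 1 library left out, Ppan passed only without library 2, and had an adjusted p of 0.240 without library 1, 0.167 without 3, 0.334 without 4, 0.142 without 5 and 0.0963 without 6 (limma). Quantile normalization left 0 members called, with Nop56 at an adjusted p of 0.0510, and columns rescaled to equal totals left Nop56 alone (adjusted p = 0.0377, limma). With equal totals 28 members were above 0 and 12 below, with a median of 0.05 where all genes had -0.05, and the share of higher genes among all calls went from 84.5% to 63.2%.

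Of all 40 members in Tcon, 20 had every SAH library above the vehicle library of its organ (16.6% of all genes did), and 14 had all 4 SAH libraries above both vehicle libraries (10% of all genes). Ncl, an abundant nucleolar protein that binds pre-rRNA, was at 1089, 1216 and 1151 CPM in lymph node and 1086, 1163 and 1114 CPM in spleen. Npm1 was at 777, 902 and 859 CPM in lymph node and 821, 860.4 and 841 CPM in spleen. In both genes the 4 SAH libraries lay above the vehicle libraries, by log2 changes of 0.09 and 0.12 that did not pass (adjusted p = 0.503 and 0.386, limma). Fbl was at 104, 131 and 117 CPM in lymph node and 112, 119 and 111 CPM in spleen. Polr1a was at 98.5, 104 and 104 CPM in lymph node and 87.6, 103 and 111 CPM in spleen, a log2 change of 0.19 (95% confidence interval 0.05 to 0.32, adjusted p = 0.214, limma). The SAH libraries of Polr1a were above both vehicle libraries, while 1 spleen SAH library of Fbl lay just below its vehicle.

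**Figure D2:**
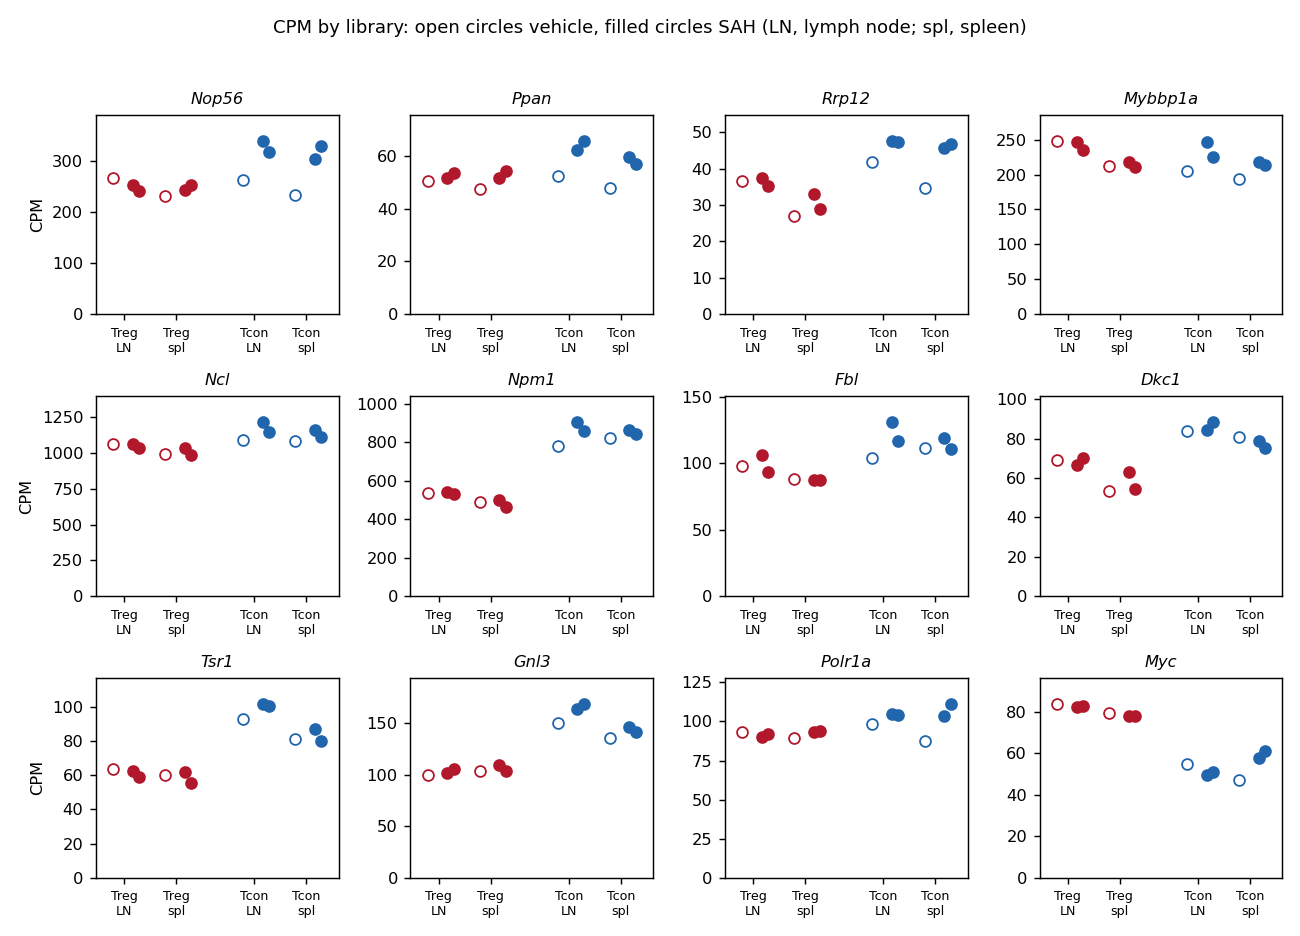
CPM (y axis, from 0) in each library for 12 members, with Treg in red and Tcon in blue, open circles for vehicle and filled circles for SAH, by organ (x axis). For Nop56 in Tcon the SAH libraries lie between 303 and 339 CPM and the vehicle libraries at 262 and 233 CPM, while the Treg libraries lie between 229.9 and 266 CPM.

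By role, the Tcon values were on the same side of 0 in most groups. All 13 small subunit factors were above 0 (median log2 0.08, highest Rrp12), as were the 4 abundant nucleolar proteins (median 0.12) and the 3 RNA polymerase I subunits Polr1a, Polr1b and Polr1c (median 0.13). Of all Tcon genes 48.9% were above 0. Outside the members, 27 of 47 other small subunit factors were above 0 (median 0.02). Of the 5 snoRNP genes, 4 were above 0 (median 0.12) and Dkc1, the pseudouridine synthase dyskerin of box H/ACA particles, was at -0.01. Nop58, the partner of Nop56 in the same box C/D particle, was at 195, 214 and 220.2 CPM in lymph node and 203, 206 and 186 CPM in spleen, a log2 change of 0.05 (95% confidence interval -0.10 to 0.19). Its spleen SAH libraries lay on both sides of vehicle, unlike those of Nop56. The 11 large subunit factors had a median of 0.08, with 8 above 0. Nop2, an rRNA cytosine methyltransferase, had a log2 change of 0.22 (95% confidence interval 0.06 to 0.37, adjusted p = 0.188, limma), and Mybbp1a, a nucleolar MYB-binding protein, one of 0.18 (0.06 to 0.30, adjusted p = 0.167, limma).

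The lowest Tcon changes were those of Wdr12, Ddx10 and Ebna1bp2. Wdr12, which forms the PeBoW complex of 60S assembly with Pes1 and Bop1, was at 21.02, 20.8 and 19.7 CPM in lymph node and 23.2, 21.1 and 21.7 CPM in spleen, a log2 change of -0.08. Its SAH libraries were below the vehicle library of the same organ, whereas Bop1 had a log2 change of 0.15 and Pes1 one of 0.03. Ddx10, a DEAD-box RNA helicase, was at 107, 104 and 108 CPM in lymph node and 108, 108 and 102 CPM in spleen. Ebna1bp2, a large subunit assembly factor, was at 39.9, 41.6 and 37.3 CPM in lymph node and 39.7, 40.8 and 37.1 CPM in spleen. In Ebna1bp2 the SAH libraries lay on both sides of vehicle in each organ, and in Ddx10 they did so in lymph node and lay below vehicle in spleen.

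Myc itself was at 55.1, 49.8 and 51.2 CPM in lymph node and 47.05, 57.96 and 61.1 CPM in spleen in Tcon. Its SAH libraries were below vehicle in lymph node (log2 -0.12) and above it in spleen (log2 0.33). The difference between the organs was 0.46 (95% confidence interval 0.19 to 0.72, adjusted p = 0.890, limma interaction term), the only member with an unadjusted p below 0.05 (2.51% of all Tcon genes were higher and 2.59% lower at that level). None of the 40 members was called for a different SAH effect in spleen and lymph node in Tcon, where 0 of 9886 genes were, nor in Treg, where 0.00961% of genes were. In Treg 0 members had an unadjusted p below 0.05 for this difference, where 0.702% of all genes were higher and 1.71% lower. Its median over the members was 0.07 in Treg, with 31 above 0 (48.4% of all genes), and -0.05 in Tcon, with 12 above 0 (47.7% of all genes).

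The SAH change of Nop56 in Treg minus that in Tcon was -0.38 on the log2 scale (95% confidence interval -0.56 to -0.20). A model of all 12 libraries, with no term for library number, treats same-numbered libraries as independent. In it, 0 of the 40 members and 0% of the 9784 shared genes were called for this difference (Nop56 adjusted p = 0.327, limma). At an unadjusted p below 0.05 there were 4 members with a lower effect in Treg (2.58% of all genes) and 0 with a higher one (2.05%). With the shared library number as a replicate block, Nop56 was called (adjusted p = 0.00243, limma, 95% confidence interval -0.49 to -0.27) together with 0.777% of genes, and no other member was. With the block, 12 members had a lower effect in Treg at an unadjusted p below 0.05 (5.42% of all genes) and 0 a higher one (4.9%). Beside Nop56 these were Rrp12 (difference -0.21), Mybbp1a, Nop2, Ppan, Polr1a, Heatr1, Utp14a, Nop14, Fbl, Npm1 and Tsr1 (-0.13). Without the block the 4 were Nop56, Mybbp1a, Ppan and Polr1a. In all, 34 of the 40 members had the higher change in Tcon (48.5% of all genes), and the 6 with the higher change in Treg were Dkc1, Rrp1b, Wdr12, Wdr43, Noc3l and Ddx10. The median difference over the members was -0.09, next to 0.004 over all genes, and it was -0.04 without library 1 and -0.14 without library 4.

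**Figure D3:**
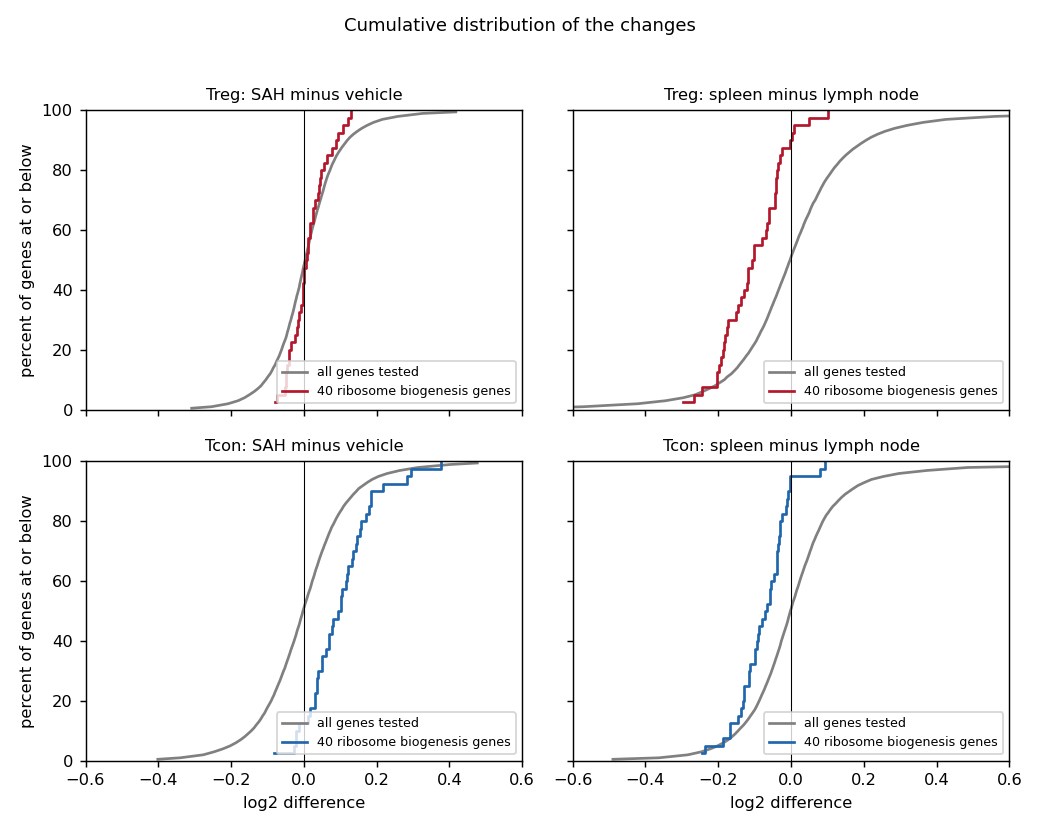
Percent of genes at or below a given log2 difference (y axis against x axis) for the 40 members (colour) and for all genes of the table (grey), for SAH minus vehicle (left) and spleen minus lymph node (right), in Treg (top) and Tcon (bottom). The members' curve lies to the right of the grey curve for SAH in Tcon (median 0.10), near it for SAH in Treg (median 0.007) and to its left for spleen in both (medians -0.10 and -0.07).

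In spleen Treg, 8 members were lower than in lymph node Treg and 0 higher, where 6.01% of all genes were called lower and 8.71% higher. At an unadjusted p below 0.05, 16 members were lower (12.9% of all genes). The median log2 difference was -0.10, or 0.931-fold, next to -0.003 over all genes, and 36 of 40 members were below 0, as were 51% of all genes, and 4 above 0, as were 49%. The 3 spleen libraries lay below the 3 lymph node libraries in 17 members (15.1% of all genes) and above them in 1, Ddx10 (16.8% of all genes).

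**Figure D4:**
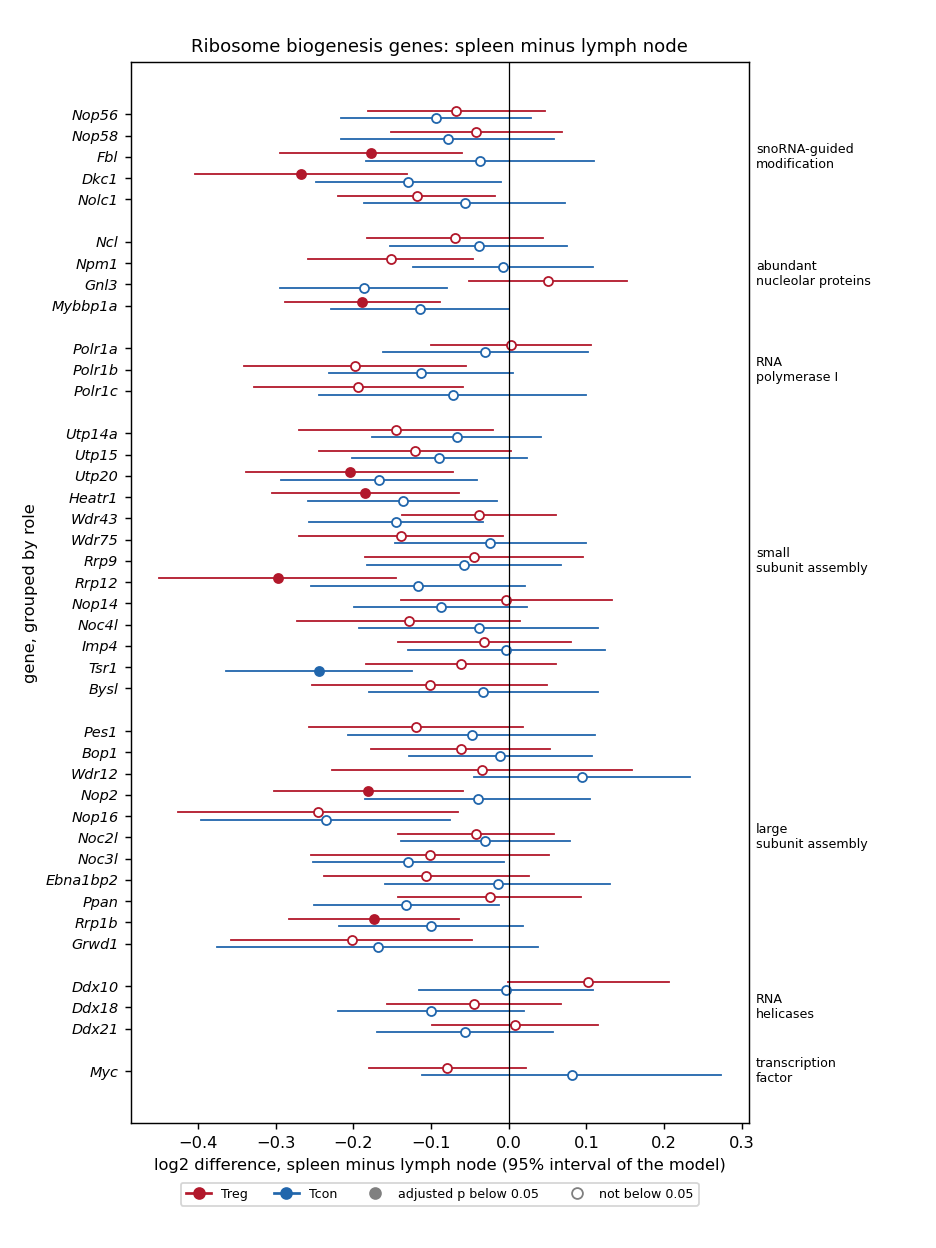
Log2 difference from lymph node to spleen (x axis, limma on log2(CPM + 1)) of each of the 40 genes, grouped by role (y axis), in Treg (red) and Tcon (blue). Points are estimates, bars are 95% confidence intervals, and filled points have an adjusted p below 0.05. The 8 filled Treg points lie between -0.30 and -0.17, and Tsr1 at -0.24 is the only filled Tcon point.

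The called Treg genes came from several steps. In snoRNPs, Dkc1 was at 69.2, 66.5 and 70.2 CPM in lymph node and 53.4, 63.2 and 54.3 CPM in spleen, and every spleen library lay below every lymph node library. It averaged 68.6 ± 1.89 CPM in lymph node and 56.99 ± 5.39 CPM in spleen (n = 3 libraries each, SD), which gave a log2 difference of -0.27 (95% confidence interval -0.40 to -0.13, adjusted p = 0.0108, limma). Fbl averaged 99.4 ± 6.57 CPM in lymph node and 87.7 ± 0.360 CPM in spleen (n = 3 libraries each, SD), which gave a log2 difference of -0.18 (adjusted p = 0.0425, limma). In small subunit assembly, Rrp12 was at 36.6, 37.4 and 35.2 CPM in lymph node and 26.9, 32.9 and 28.8 CPM in spleen, the lowest of the 40 differences at -0.30 (95% confidence interval -0.45 to -0.14, adjusted p = 0.0113, limma), with no overlap of the organs. Utp20, a scaffold of the small subunit processome, was at 85.2, 88.2 and 82.3 CPM in lymph node and 67.6, 82.3 and 72.3 CPM in spleen, a log2 difference of -0.20 (adjusted p = 0.0399, limma). Heatr1, which acts in pre-rRNA transcription and processing, was at 123, 113 and 119 CPM in lymph node and 99.4, 112 and 101 CPM in spleen, a log2 difference of -0.18 (adjusted p = 0.0403, limma). For both, the highest spleen library was the SAH library 5, just under the lowest lymph node library.

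Mybbp1a was at 249, 247 and 236 CPM in lymph node and 212, 219 and 211 CPM in spleen, a log2 difference of -0.19 (95% confidence interval -0.29 to -0.09, adjusted p = 0.0135, limma). In large subunit assembly, Nop2 was at 57.7, 56.4 and 54.4 CPM in lymph node and 46.8, 51.3 and 50.3 CPM in spleen, a log2 difference of -0.18 (adjusted p = 0.0465, limma), and Rrp1b, whose libraries are given above, had one of -0.17 (adjusted p = 0.0349, limma). The organs did not overlap in any of these 3 genes. Nop16, another 60S factor, was at 18.5, 18.6 and 16.1 CPM in lymph node and 14.7, 15.9 and 13.9 CPM in spleen with no overlap, but its log2 difference of -0.24 missed the threshold (adjusted p = 0.0679, limma). The subunits Polr1b and Polr1c had log2 differences of -0.20 and -0.19 (adjusted p = 0.0631 and 0.0543, limma), while the largest subunit, Polr1a, was at 0.0029.

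Few Treg members leaned the other way. Ddx10 was at 73.3, 76.5 and 75.6 CPM in lymph node and 79.2, 83.2 and 79.9 CPM in spleen, a log2 difference of 0.10 (adjusted p = 0.182, limma). Gnl3, the GTP-binding protein nucleostemin, was at 99.2, 101 and 105 CPM in lymph node and 104, 109 and 104 CPM in spleen, a log2 difference of 0.05. Ddx21, an RNA helicase of rRNA transcription and processing, was at 278, 280.4 and 281 CPM in lymph node and 279, 298 and 269 CPM in spleen, a log2 difference of 0.01 that turned to -0.012 with quantile normalization and -0.021 with equal totals. In Gnl3 and Ddx21 the organs overlapped.

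The Treg count rested on single libraries and on the scaling. It was 0 without library 1, 1 without 2, 1 without 4, 6 without 3 or 6 and 11 without 5. With quantile normalization it was 6, and with equal column totals 13. Over the 6 omissions, 768 to 1830 of all genes were called in either direction. Of all genes, 625 were called lower as deposited, 648 with quantile normalization and 834 with equal totals. With equal totals the share of higher genes among all calls went from 59.2% to 46.3%. Each of the 8 calls was lost without library 1, and each was also lost without library 4. In the interaction fit, the SAH libraries alone, 2 per organ, gave 1 called member, Polr1c, and a median of -0.09. Polr1c was not one of the 8, and the number of all genes called in that fit is given in the closing section. Myeloid markers were higher in spleen in the same libraries, Lyz2 at 0.901 to 1.33 CPM in lymph node and 21.6 to 52.2 CPM in spleen, and their part in the differences was not tested.

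In Tcon 1 member was lower in spleen, Tsr1, and 0 were higher, where 1.46% of all genes were called lower and 3.28% higher. At an unadjusted p below 0.05, 9 members were lower (7.96% of all genes) and 0 higher (9.48%). The median log2 difference was -0.07, next to -0.002 over all genes, and 38 of 40 members were below 0, as were 50.7% of all genes, and 2 above 0, as were 49.3%. In the interaction fit, the SAH libraries alone gave a median of -0.08, with 37 members below 0. The vehicle libraries, 1 per organ, gave a median of -0.03, with 25 below 0 and 15 above. The medians over all genes were -0.002 and 0.002. In 10 members the 3 spleen libraries lay below the 3 lymph node libraries (9.33% of all genes). Summed CD8 and natural killer cell markers (7 of 10 listed) lay between 31.0 and 37.2 CPM in lymph node and between 94.7 and 126 CPM in spleen, and their part in the differences was not tested.

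Tsr1 (ENSMUSG00000038335, chr11:74898071-74909342, plus strand, mm10), a GTPase-like factor of late 40S maturation, was at 93.03, 102 and 101 CPM in lymph node and 81.3, 87.3 and 80.3 CPM in spleen in Tcon. Every spleen library lay below every lymph node library, with means of 98.5 ± 4.73 CPM in lymph node and 82.95 ± 3.80 CPM in spleen (n = 3 libraries each, SD), which gave a log2 difference of -0.24 (95% confidence interval -0.36 to -0.12, adjusted p = 0.0300, limma). Srr lies on the other strand over 34.2% of its exonic bases, and the use of strand in counting is not stated, so reads of the pair may not be separated. The call was lost without library 1 (adjusted p = 0.0754), 3 (0.129), 4 (0.0739), 5 (0.0743) or 6 (0.124) in limma, and log2 differences ran from -0.27 to -0.20. Gnl3 was at 149.6, 164 and 168 CPM in lymph node and 135, 146 and 141 CPM in spleen, a log2 difference of -0.19 with no overlap (adjusted p = 0.0579, limma), which passed only with equal totals (0.0401). Nop16 was at 16.7, 17.95 and 15.8 CPM in lymph node and 13.96, 14.2 and 14.2 CPM in spleen, a log2 difference of -0.24 (adjusted p = 0.107, limma).

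The Tcon members at the upper end were Wdr12 (0.09), Myc (0.08) and Imp4, a protein of the U3 snoRNP (-0.003). The value of Myc averages opposite directions. Its spleen vehicle library lay below the lymph node vehicle library, while its spleen SAH libraries lay above those of lymph node. With single libraries left out, the difference of Myc ran from 0.02 to 0.23. Wdr12, given above, was the only member with its 3 spleen libraries above its 3 lymph node libraries (10% of all genes). Imp4 was at 83.4, 93.8 and 86.97 CPM in lymph node and 89.8, 87.6 and 85.9 CPM in spleen, with the organs overlapping. In 34 of 40 members the spleen value was below lymph node in both tables. The exceptions were Wdr12 and Myc in Tcon and Polr1a, Gnl3, Ddx10 and Ddx21 in Treg. The share of all shared genes below lymph node in both tables was not counted. Same-numbered libraries of the tables also deviated together, so whether the members' count is unusual was not tested.

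For the difference between organs, 0 of the 40 members were called as unlike in Treg and Tcon, where 1.46% of the shared genes were, and at an unadjusted p below 0.05 there were 2 members with a higher difference in Treg (6.14% of all genes) and 0 with a lower one (6.02%), a share no larger than that of all genes. One was Gnl3, whose organ difference in Treg minus that in Tcon was 0.24 on the log2 scale (95% confidence interval 0.10 to 0.37, adjusted p = 0.0844, limma). With the replicate block it was called (adjusted p = 0.00713, limma) with 7.19% of all genes, and at an unadjusted p below 0.05 there were 2 members higher (10.8% of all genes) and 4 lower (9.86%). The other was Tsr1, at 0.18 (adjusted p = 0.339, limma).

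The values can also be set out by promoter motif. After SAH in Tcon, the 8 members with the motif had a median log2 change of 0.09, with 8 of 8 above 0, and the 27 without it 0.07, with 22 of 27 above 0. After SAH in Treg the medians were 0.03 and 0.0008, and 5 of 8 members with the motif and 15 of 27 without it were above 0. Between organs in Treg the medians were -0.15 and -0.10, and 8 of 8 members with the motif and 23 of 27 without it were below 0. Between organs in Tcon they were -0.13 and -0.07, with 8 of 8 and 26 of 27 below 0. These are descriptions of the listed members, with no test.

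Other genes of the pathway were taken from lists fixed by name, also with earlier results of these data known. After SAH in Treg, 0 genes passed in any of 10 other lists, which held from 12 to 52 listed genes each (limma). At an unadjusted p below 0.05, where 4.38% of all genes were higher and 2.66% lower, 4 of 41 biosynthesis genes known as MYC targets, 4 of 20 mTORC1 and p53 stress genes, 3 of 16 proliferation genes, 2 of 12 MYC network genes and 2 of 47 other small subunit factors were higher in SAH. At the same level 1 stress gene, 1 of 52 other large subunit factors and 1 of 19 RNA polymerase I genes were lower, and the other 3 lists had 0. Of the MYC target list 34 of 41 genes were above 0 (median 0.05), and of the proliferation list 16 of 16 (median 0.12). Of all Treg genes 51.8% were above 0 (median 0.003). Among the genes with the lowest p-values of their lists were Slc7a5, a leucine transporter (log2 0.20), Hspd1, the mitochondrial HSP60 (0.14), Ddit4, an mTORC1 inhibitor (0.30, adjusted p = 0.126, limma), and Mki67 (0.24). In Tcon, 2 of the 41 MYC target genes rose and 0 fell, where 0.88% of all Tcon genes were called higher and 0.162% lower. Slc7a5 was at 49.02, 79.6 and 79.03 CPM in lymph node and 45.6, 64.5 and 66.4 CPM in spleen, 1.51-fold higher (adjusted p = 0.00216, limma). Impdh2, the enzyme that commits IMP to guanine nucleotides, was at 119.8, 153 and 143 CPM in lymph node and 116, 139 and 136 CPM in spleen, 1.21-fold higher (adjusted p = 0.0478, limma). In both, the SAH libraries stood clear of vehicle in each organ. Of the 41 genes of that list 35 were above 0, with a median of 0.09, next to 48.9% and -0.003 over all Tcon genes.

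Of 19 listed mTORC1 and p53 stress genes, 2 rose in Tcon after SAH and 0 fell, where 0.88% of all genes were called higher and 0.162% lower. Sesn2, a stress-induced sensor that restrains mTORC1, was 1.39-fold higher (adjusted p = 0.0469, limma) and Cdkn1a, the cell cycle inhibitor p21, 1.51-fold higher (adjusted p = 0.0357, limma). Of 13 proliferation genes 1 rose, Pcna, the sliding clamp of DNA replication (1.23-fold, adjusted p = 0.0266, limma). How many genes were called after SAH in Tcon depended on the scaling. Over all genes, 87 were higher and 16 lower as deposited. These counts were 36 and 8 with quantile normalization, and 48 and 28 with equal totals. No gene passed among 47 other small subunit factors (median 0.02), 52 other large subunit factors (0.03), 12 other snoRNP genes (0.08), 19 genes of RNA polymerase I and its factors (0.02), 22 of RNA polymerase III (-0.03), 17 of the nuclear exosome (-0.02) and 12 of the MYC network (0.02). Their lowest p-values belonged to Pdcd11 in the small subunit list (log2 0.19), Ftsj3 in the large subunit list (0.17), Shq1 in the snoRNP list (0.24), Taf1c in the RNA polymerase I list (0.19) and Mlxip in the MYC network (0.25).

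Between organs in Treg, 12 of the 41 biosynthesis genes were lower in spleen and 2 higher (median -0.11). Of all Treg genes, 6.01% were called lower in spleen and 8.71% higher, and the counts of each list are to be read beside these shares. The lowest p-values belonged to Odc1, the first enzyme of polyamine synthesis, which was 1.31-fold higher in spleen (adjusted p = 0.000243, limma), and to Cad, of pyrimidine synthesis, and the cell cycle genes Ccnd2 and Cdk4, which were 1.23-fold, 1.28-fold and 1.26-fold lower. In the MYC network, 4 of 12 genes were higher in spleen (Mxi1, Mnt, Mxd1 and Fbxw7) and 1, Mxd4, was 1.32-fold lower (adjusted p = 0.000528, limma). Mxi1, a MAX partner that opposes MYC, was at 28.8 ± 0.770 CPM in lymph node and 35.9 ± 1.78 CPM in spleen (n = 3 libraries each, SD). Of the 47 other small subunit factors, 4 were lower (Wdr46, Nol6, Rcl1 and Nat10) and 1, Riok1, higher. Of the 52 other large subunit factors, 2 were lower (Npm3 and Mdn1) and 1, Ddx24, higher. Nhp2, a partner of Dkc1 in box H/ACA particles, was 1.24-fold lower (adjusted p = 0.0215, limma), the only call among 12 snoRNP genes.

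The RNA polymerase I list held 2 of 19 genes that were higher in spleen Treg, Polr1d and Znrd1, and 0 lower. Among all Treg genes 8.71% were called higher and 6.01% lower. The polymerase III list held 1 lower (Polr3e) and 1 higher (Maf1, a repressor of that polymerase) of 22, and the exosome list 1 lower (Exosc5) of 17. Cdkn1a was 1.84-fold higher, with Sesn1 and Mdm2 also higher and Ddit4 lower, of 20 stress genes. Of 16 proliferation genes 4 were lower (Mcm5, Mcm7, Mcm3 and Top2a) and 0 higher. In Tcon the calls between organs were Wdr46 (log2 -0.22), Rrs1 (-0.28), Gtf3a (-0.40) and Ccnd2 (-0.21), all lower in spleen, and Cdkn1a (0.54), higher. Among all Tcon genes 1.46% were called lower and 3.28% higher. The other lists had 0 calls there, the 13 proliferation genes included, whose median was 0.16.

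Genome context bears on how these counts can be read. In the annotation, 8 members host 23 snoRNA genes: Nop56 holds 5, Nop58 4, Ncl, Gnl3 and Wdr43 3 each, Ppan and Tsr1 2 each and Dkc1 1. Exons of 15 members overlap a gene on the other strand. The overlap covers 34.2% of exonic bases in Tsr1, 20.9% in Noc2l, 18.9% in Utp14a and 9.37% in Bysl, and at most 5.33% in the other 11. Reads of such a pair may not be separated, since the use of strand in counting is not stated.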

How the data were processed

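RNA from 12 libraries was prepared with a stranded mRNA kit, per the labels' protocols. TopHat, Bowtie, edgeR and the build mm10 are named in the submitters' processing notes, with no version. Which annotation and counter were used is not given in the sources used here. For each cell type the authors deposited 1 table with a normalized signal that the file headers call CPM; column totals run from 971928 to 1021433, so each library also carries a scaling factor. Fold changes and mean levels on the log2 scale are also deposited, per the file headers. So are a p-value and a false discovery rate for each gene, and 2 deposited scores, a likelihood ratio and a call. With 1 read estimated at up to 0.0267 CPM, 100% of values lay within 0.1 of a whole read, but too few low values remain to establish that unit.

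Values were analysed as log2(CPM + 1) in R 4.3.3 with limma 3.58.1 (intensity trend, two-sided, Benjamini-Hochberg over all genes of a comparison, threshold 0.05), after testing on simulated data. Organ and treatment were terms of 1 fit per table (3 residual degrees of freedom), with an interaction fit (2) and a fit of all 12 libraries (6, or 3 with the library number as a block). A filter of at least 1 CPM in at least 2 libraries removed 0 genes. Library numbers are shared by the tables, but the labels do not say what a shared number stands for. Same-numbered SAH libraries deviated together in lymph node (correlation 0.438) and spleen (0.556). Residuals of the additive fit correlated at 0.286 to 0.537 by number. Numbers 1 and 4, the only vehicle libraries, have the same value (0.286) because the design mirrors their residuals. A fold change is 2 to the power of a difference in log2(CPM + 1), which understates low genes. Members, lists and tests were chosen with earlier results of these data known. All members may be named; values by library are given for Myc, Ncl, Npm1, Fbl, Nop56 and Polr1a, for members passing a test and for the 3 highest and 3 lowest changes per comparison, and in other lists called genes come first by p, at most 4. Coordinates and exon lengths come from GENCODE for mm10 (coding transcripts), promoters from RefSeq. Alternatives were other pseudocounts, filters and scalings, single organs, 1 symbol per gene, the block, the looser motif and leaving out each library.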

Additional observations from a re-analysis of the deposited data

Results flagged for a closer look

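The SAH effect of Nop56 differed between cell types when the library number was a block (Treg minus Tcon -0.38 on the log2 scale, adjusted p = 0.00243, limma), with SAH libraries above vehicle in 4 of 4 cases in Tcon and 2 of 4 in Treg. Without the block its adjusted p was 0.327.

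The organ difference of Gnl3 differed between cell types with the same block (Treg minus Tcon 0.24, adjusted p = 0.00713, limma), where all 3 spleen libraries were below lymph node in Tcon and the organs overlapped in Treg. Without the block its adjusted p was 0.0844.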

How the results depend on the processing

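Direction was kept for most results under the other pseudocount, filters, scalings and symbol choice. With quantile normalization, 0 members and 44 genes were called after SAH in Tcon and 10 genes in Treg. Between organs in Treg it gave 6 members, and Ddx21 turned to -0.0125. With equal column totals, 1 member was called after SAH in Tcon, 13 between organs in Treg, where Ddx21 was at -0.0206, and 2 between organs in Tcon. Pseudocount 0.25 gave 2 genes for the organ dependence of SAH in Treg. From the interaction fit, where each organ has 1 vehicle library, lymph node alone gave 0 members and 14 genes after SAH in Tcon, and spleen alone 0 members and 30 genes in Tcon and 7 genes in Treg, with Wdr75 at 0.0211. SAH libraries alone gave 1 member and 786 genes between organs in Treg and 0 and 263 in Tcon. Vehicle libraries alone set 1 library against 1, with a spread borrowed from the SAH pairs, and so are no check on the organ result; they gave 0 and 395 in Treg and 0 and 138 in Tcon, with Myc at -0.22 and Imp4 at 0.11. The replicate block gave 1 member and 76 genes for the SAH effect between cell types, and 1 member and 703 genes for the organ difference, and changed no other member's call. The looser motif CANNTG was in 60% of members. The cause of these shifts was not tested.

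Leaving out each library in turn gave 0 to 2 members and 11 to 226 genes after SAH in Tcon, and 7 to 95 genes in Treg. Between organs it gave 0 to 11 members and 768 to 1830 genes in Treg, and 0 to 1 members and 215 to 628 genes in Tcon. The organ dependence of SAH gave 0 to 94 genes in Treg and 0 to 15 in Tcon, and the organ difference between cell types 62 to 133 genes. Log2 values ran from -0.169 to 0.0211 for Wdr75 and -0.0353 to 0.0501 for Ddx21 in Treg, and from -0.0569 to 0.00974 for Ebna1bp2 and -0.0573 to 0.0432 for Imp4 in Tcon. With 1 vehicle library per organ, an omitted vehicle leaves 1 organ to carry the SAH effect. A planned count test was not run, because too few low values remain to establish whole reads from the deposited signal. The number of libraries limits the precision.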
